A study of Rattus norvegicus with 12 samples.

Results

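Brain RNA from a model of Alzheimer's disease given a high-fat diet as well (AD-HFD) was compared with brain RNA from a control group called Sham. The comparison takes the columns of a raw count table that carry these group names, 4 libraries a side, which is 8 of the 12 libraries of the study. The other 4 libraries are from the AD model without the diet (AD) and are given as values only. The study asked how the AD model and metabolic stress change the brain transcriptome. The labels name no agent, allele or surgery behind the model or the Sham control, and give no brain region, age, sex, fat content or length of the diet. They call the tissue mouse brain, while the organism field reads Rattus norvegicus and the table uses rat Ensembl identifiers, so the samples are treated here as rat. Because AD-HFD differs from Sham by both the model and the diet, their contributions cannot be told apart in this comparison. Separate animals are not stated in the labels, and p-values therefore measure only the spread between these samples.

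Alzheimer's disease is marked by extracellular amyloid, cut from the precursor App by secretases, and by tangles of the microtubule protein tau. Around such deposits astrocytes and microglia, the support and immune cells of the brain, switch on reactive programs that include complement, chemokines and lysosomal genes, while synapses are lost. A high-fat diet is known to disturb insulin signalling and lipid handling in the body, and is widely studied for inflammatory effects in the brain.

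The 8 libraries held 28025420 to 35351792 counts, with the ranges of the groups overlapping. Neuronal Snap25 and Rbfox3 were present in all 8 libraries, as was Slc17a7, the glutamate transporter of cortical and hippocampal excitatory neurons, at 1222 to 1703 CPM in Sham and 288 to 1256 CPM in AD-HFD (CPM, counts scaled to library size after TMM normalisation). Some libraries stood apart from their group. AD-HFD-3 correlated better with the Sham libraries (mean r = 0.929 over log2 CPM of genes) than with its own group (0.911), while AD-HFD-4 was farthest from Sham (0.803). Choroid plexus was unevenly present: its main product Ttr reached 4201 CPM in Sham-2, 4283 in Sham-3, 9689 in AD-HFD-1 and 483 in AD-HFD-2, while the 4 remaining libraries stayed below 9 CPM. The 7 red blood cell genes summed to 628 to 745 CPM in Sham and 740.3 to 4425 CPM in AD-HFD, highest in AD-HFD-4. Within Sham this sum did not follow the globin genes, so it does not measure blood alone. Sham-1 had the highest sum of its group but the lowest Hbb (44.2 CPM), Hba-a1 (87.1 CPM) and Hba-a2 (27.5 CPM). For each of these globins AD-HFD-3 lay inside the Sham range. In bulk RNA, fewer cells of a type and less RNA per cell cannot be told apart.

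AD-HFD and Sham differed broadly, and the large differences were mostly rises. In edgeR's quasi-likelihood test, adjusted by Benjamini-Hochberg, 6101 of 18161 genes tested (33.6%) passed at an adjusted p under 0.05. Of these, 3747 (20.6%) were higher and 2354 (13.0%) lower in AD-HFD. Every count of list members from this fit is to be read against these shares. The median log2 fold change was 1.38 among the higher and -1.15 among the lower genes, and 0.04 over all genes tested. A difference of at least 3 on the log2 scale was found for 571 higher and 71 lower genes. The libraries of the groups did not overlap in CPM for 6481 genes (35.7%), and 5246 genes were both called and free of overlap. The count moved with single libraries: it was 3230, 3722 and 3400 without Sham-1, Sham-3 and Sham-4 and 9717 without AD-HFD-3. The higher count was 2275 without Sham-1 and 2351 without Sham-4, while the lower count was 955 to 1488 without any 1 Sham library, AD-HFD-1 or AD-HFD-2 and 4571 without AD-HFD-3. A total of 2923 genes were called in all 8 fits that left out 1 library. With the red blood cell list mean as a covariate 2405 genes were called, 1682 higher and 723 lower of 18161 tested. Without AD-HFD-3 there were 5146 higher and 4571 lower of 18608 tested. Counts of list members in these other fits are to be read against the shares of the same fit, not against 20.6% and 13.0%.

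**Figure D1:**
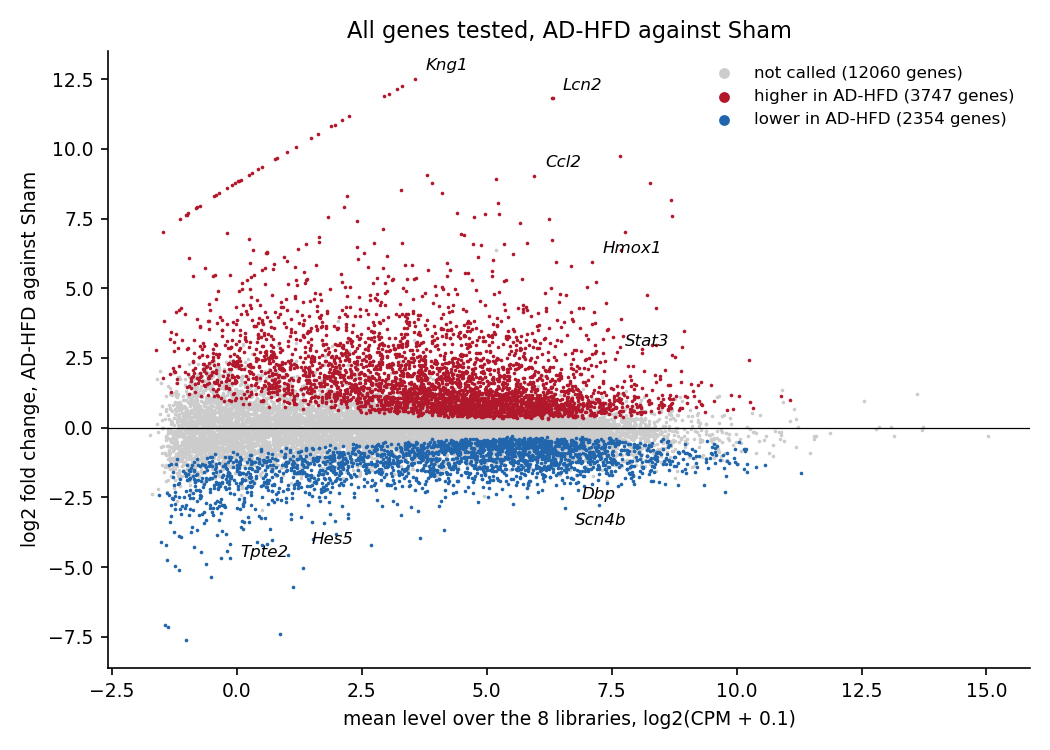
Each point is 1 gene tested, with its mean level over the 8 libraries as log2(CPM + 0.1) on the x axis and its log2 fold change, AD-HFD against Sham, on the y axis. The 3747 higher genes (red) reach much larger log2 fold changes than the 2354 lower genes (blue), and the straight upper edge is formed by genes with no counts in Sham.

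The higher genes with the smallest p included secreted or surface factors and a stress gene, some of them near absent in Sham and others already expressed there. Ccl7, a chemokine that draws monocytes, was at 0, 0.128, 0 and 0.0669 CPM in Sham-1 to Sham-4 against 28.4, 22.0, 30.4 and 30.5 CPM across AD-HFD-1 to AD-HFD-4, a log2 fold change of 9.08 ± 0.53 (standard error; adjusted p = 2.25e-06 by edgeR's quasi-likelihood test, as for every adjusted p below). Bracketed values with ± are log2 fold changes with their standard errors. Each error is the size of the change over the square root of the test's F statistic. It can understate the uncertainty of genes near absent in Sham, such as Ccl7 and Lcn2, with 6 and 5 counts summed over Sham. In fits without 1 library the change of Ccl7 ran from 8.65 to 10.1. The 4 AD-HFD libraries of Ccl7 lay close together and far above every Sham library. Lcn2, an iron-binding protein secreted by reactive astrocytes, was at 0, 0.0639, 0 and 0.10 CPM in Sham and 165, 188, 21.9 and 257 CPM in AD-HFD (11.81 ± 0.93, adjusted p = 1.65e-05). AD-HFD-3 was the lowest of its group for Lcn2 but remained above all Sham libraries. The TWEAK receptor Tnfrsf12a went from 0.934–1.6 CPM to 69.4–127 CPM (6.23 ± 0.27), the growth factor Hbegf from 4.31–5.49 CPM to 60.8–83.1 CPM (3.84 ± 0.18), and the stress gene Gadd45g from 5.99–7.82 CPM to 107–166 CPM (4.30 ± 0.19). None of these 5 genes overlapped between the groups, as held for 35.7% of all genes, and each was called in all 8 fits without 1 library. They were picked by p from the same libraries, so this describes them and is no further support.

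Among the lower genes the smallest p belonged to Dbp, a transcription factor driven by the circadian clock. Dbp was at 154, 137, 174 and 180.5 CPM in Sham and 39.4, 54.1, 44.8 and 42.6 CPM in AD-HFD (-1.82 ± 0.15, adjusted p = 0.0002). Every AD-HFD library was below every Sham library. Osbpl1a, an oxysterol-binding protein relative, was at 377, 342, 321 and 321 CPM in Sham and 133, 115, 140.0 and 112 CPM in AD-HFD (-1.43 ± 0.14). Omg, a glycoprotein of oligodendrocytes and neurons that restrains axon growth, fell by 1.56 on the log2 scale, from 258–289.8 CPM to 71.0–109.6 CPM. The tight junction gene Cldn10 (log2 -1.62 ± 0.17), the troponin gene Tnnc2 (-2.24 ± 0.20) and Nat8f3, of the N-acetyltransferase 8 family (-2.82 ± 0.27), completed the 6 lower genes with the smallest p. All 6 were called in every fit without 1 library, which is likely for genes picked by p from these same libraries.

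**Figure D2:**
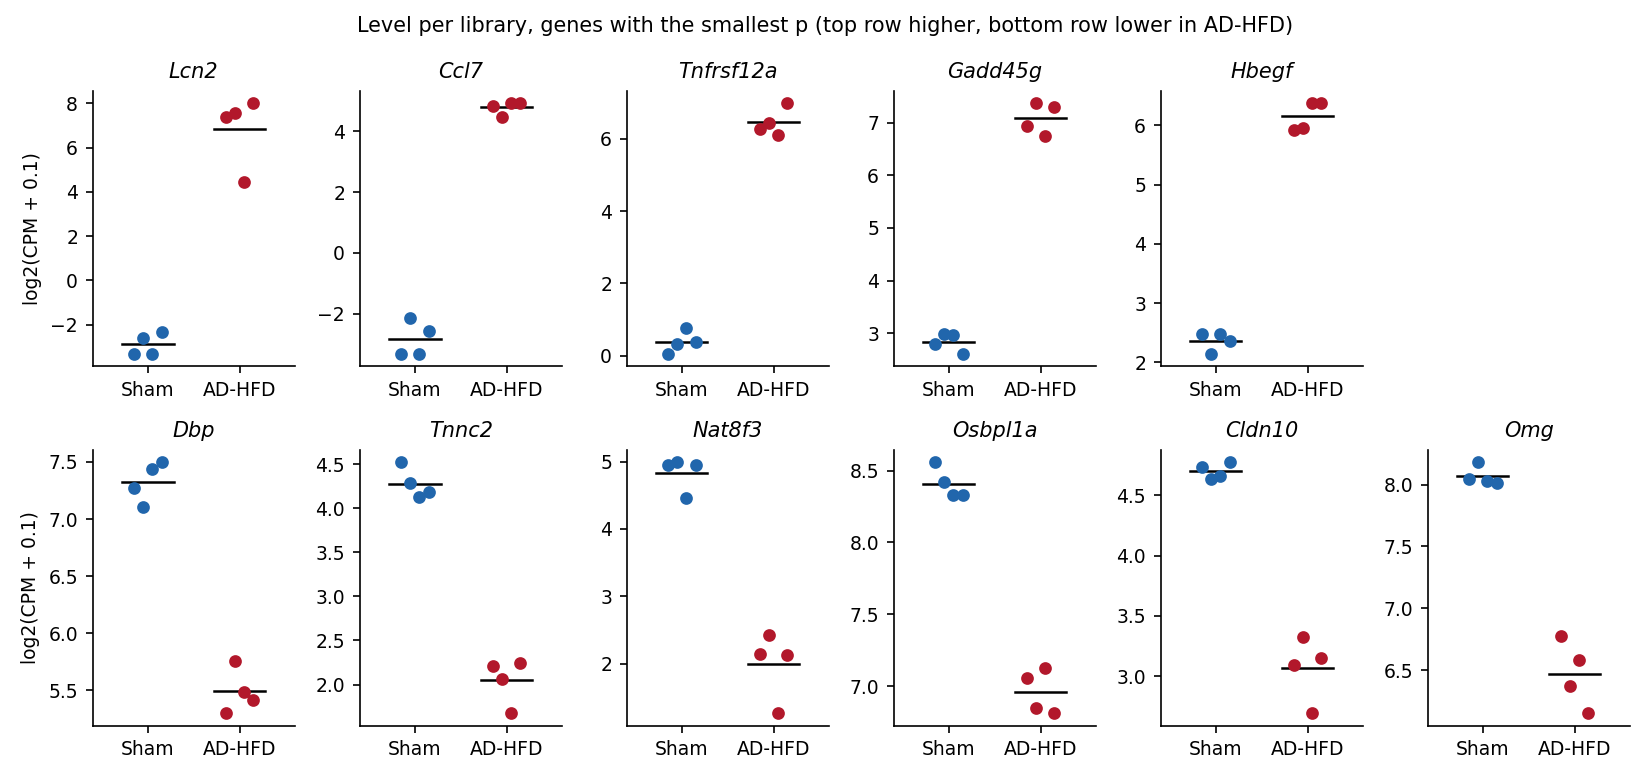
Level of 5 higher genes (top row) and 6 lower genes (bottom row) among those with the smallest p, as log2(CPM + 0.1) on a y axis that differs between panels; points are the 4 libraries of each group in the order 1 to 4 and bars are group means. In each panel the Sham and AD-HFD libraries are apart, from Ccl7 (log2 fold change 9.08) to Osbpl1a (-1.43). This is likely for genes picked by p from these same libraries.

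Several of the largest rises were in genes without any counts in the 4 Sham libraries. Their folds are lower bounds with respect to Sham only, set against 3 counts summed over Sham. The AD-HFD counts were summed as well, so the bounds do not cover the spread between AD-HFD libraries. A single AD-HFD library can lie below them. Kng1, a precursor of bradykinin, stood at 9.23, 44.6, 13.1 and 27.3 CPM in AD-HFD-1 to AD-HFD-4, at least 981-fold higher than in Sham. The chemokines Ccl20, Cxcl1, Ccl3 and Cxcl3 were at least 800.1-fold, 746-fold, 667-fold and 178-fold higher. AD-HFD-3 was the lowest AD-HFD library for each of these 4 chemokines, at 5.16, 3.31, 2.94 and 1.22 CPM. The interferon-induced gene Ifit1 was at least 624-fold higher, the collagenase Mmp13 at least 343-fold, the myeloid hexokinase Hk3 at least 309-fold, the protease inhibitor Serpinb2 at least 297-fold and the neutrophil chemokine receptor Cxcr2 at least 156-fold. Across the AD-HFD libraries Ifit1 ran from 1.97 to 28.6 CPM, Hk3 from 0.844 to 15.2 CPM, Serpinb2 from 1.10 to 18.3 CPM and Cxcr2 from 0.531 to 10.5 CPM. The call of Mmp13 was lost on leaving out Sham-1, and that of Cxcr2 without AD-HFD-1. Mmp13 stood at 0.953, 4.36, 2.09 and 26.2 CPM in AD-HFD, so most of its counts came from AD-HFD-4.

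Inflammatory genes were higher almost throughout. Of 33 measured cytokines, chemokines, their receptors and feedback genes of the NF-kB pathway, 30 rose and 0 fell, with a median log2 fold change of 3.17 against 0.04 over all genes tested (20.6% higher). Setting Ccl3 and Cxcl1 to their bounds left that median at 3.17. Ccl2, the main monocyte chemokine, was at 0.204, 0.479, 0 and 0.234 CPM in Sham and 145, 89.1, 59.7 and 199.8 CPM in AD-HFD (9.04 ± 0.67, adjusted p = 0.00012), with no overlap between the groups. Socs3, a brake on cytokine signalling, went from 0.255–0.350 CPM to 42.7–103 CPM (7.67 ± 0.39). Ccl4 was at 10.2, 13.4, 2.34 and 15.1 CPM in AD-HFD and at no more than 0.167 CPM in Sham (7.42 ± 0.82). The interleukins Il6 (8.54 ± 1.19) and Il1b (5.50 ± 0.69) and the cytokine Tnf (4.09 ± 0.80) rose as well. Il1a (1.09 ± 0.59, adjusted p = 0.174), the adhesion molecule Vcam1 (0.54 ± 0.31) and Ccl5 (0.85 ± 0.75) did not pass. The count of 30 stayed within 1.5 times in every fit without 1 library and with the red blood cell covariate.

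Astrocyte genes of the reactive state were higher almost throughout. Of 25 reactive astrocyte genes 24 rose (median 3.68), and only the glucocorticoid target Fkbp5 did not pass (0.29 ± 0.15, adjusted p = 0.159). Stat3, a transcription factor of the reactive program, was at 60.3, 57.1, 58.4 and 55.5 CPM in Sham and 285, 337, 293 and 366 CPM in AD-HFD (2.48 ± 0.13, adjusted p = 2.41e-05). Both groups were tight and lay far apart. The pentraxin Ptx3 went from 0.0680–0.321 CPM to 19.0–71.1 CPM (7.70 ± 0.56), and the protease inhibitor Timp1 from 0.847–1.84 CPM to 258–1353 CPM (8.77 ± 0.71). Gfap, the intermediate filament of astrocytes, was at 212, 478, 469 and 367 CPM in Sham and 1873, 3891, 2129 and 252 CPM in AD-HFD (2.44 ± 0.67, adjusted p = 0.0254). AD-HFD-4 lay inside the Sham range, and the call of Gfap was lost on leaving out AD-HFD-1, AD-HFD-2, Sham-1, Sham-2, Sham-3 or Sham-4. The reactive count of 24 stayed within 1.5 times in every fit without 1 library and with the red blood cell covariate. Genes of resting astrocytes did not follow: of 14 members 1 rose and 6 fell (median -0.59). Slc4a4, a bicarbonate transporter, fell (-0.72 ± 0.14), and the gap junction gene Gjb6 fell (-1.03 ± 0.27) with its call lost on leaving out AD-HFD-1, AD-HFD-2, Sham-1, Sham-2 or Sham-4. The riser was Glul, the glutamine synthetase (0.99 ± 0.25), whose call was lost on leaving out AD-HFD-2, Sham-1, Sham-2, Sham-3 or Sham-4. The homeostatic count of 6 was 2 to 3 on leaving out any 1 Sham library or AD-HFD-1 and 3 with the red blood cell covariate.

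Most genes of disease-associated microglia rose, while genes of resting microglia were mixed. Of 16 genes of resting microglia 6 rose and 2 fell (median 0.41), the falls at about the 13.0% over all genes. The integrin Itgam was at 4.15, 6.48, 6.53 and 5.45 CPM in Sham and 112, 104, 45.1 and 138 CPM in AD-HFD (4.16 ± 0.35, adjusted p = 0.000224), the signalling adaptor Tyrobp rose by 2.59 ± 0.35 and the leukocyte phosphatase Ptprc by 3.62 ± 0.53. P2ry12, the purine receptor of resting microglia, was instead at 11.3, 12.2, 10.9 and 9.87 CPM in Sham and 4.70, 3.22, 4.56 and 2.23 CPM in AD-HFD (-1.57 ± 0.26, adjusted p = 0.00399), and Gpr34, a lipid receptor, fell (-1.2 ± 0.28). No library of AD-HFD reached the Sham range of P2ry12. Of 23 genes of disease-associated microglia, the state found around amyloid plaques, 18 rose and 0 fell (median 2.43). Itgax, a defining gene of that state, was at 0.0584, 0.639, 0.510 and 0.234 CPM in Sham and 53, 54.8, 9.15 and 59.5 CPM in AD-HFD (6.95 ± 0.76). The galectin Lgals3 went from 1.46–2.62 CPM to 30.2–109.7 CPM (5.30 ± 0.44), the lysosomal membrane protein Cd63 from 43.4–96.5 CPM to 294–572 CPM (2.83 ± 0.31), and the growth factor Igf1 from 1.10–1.56 CPM to 4.14–5.48 CPM (1.95 ± 0.22). AD-HFD-3 was the lowest AD-HFD library for Itgam, Itgax, Lgals3 and Cd63, yet above Sham in each. Trem2, the lipid receptor on which this state depends, did not pass: it was at 6.92, 7.22, 8.53 and 8.26 CPM in Sham and 6.80, 5.19, 3.87 and 9.38 CPM in AD-HFD (-0.28 ± 0.27, adjusted p = 0.435), and the ranges overlapped. The disease-associated count of 18 stayed within 1.5 times in every fit without 1 library and with the red blood cell covariate.

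Markers of blood and border immune cells rose beside them. Of 14 markers 11 rose and 0 fell (median 3.47). Their summed level was 10.6 to 18.3 CPM in Sham and 38.1 to 319 CPM in AD-HFD, and no marker was at 0 in all libraries of a group. The scavenger receptor Cd163 of border macrophages was at 0.467, 0.639, 0.170 and 0.335 CPM in Sham and 9.49, 13.7, 5.75 and 31.3 CPM in AD-HFD (5.2 ± 0.64, adjusted p = 0.00141). The neutrophil proteins S100a8 (6.15 ± 0.91) and S100a9 (6.13 ± 0.90) rose, as did the macrophage gene F13a1 (3.28 ± 0.57), and all 4 genes were highest in AD-HFD-4 and lowest in AD-HFD-3 within their group. The T cell genes Cd3e (0.71 ± 0.85) and Cd4 (0.73 ± 0.44) did not pass. The count of 11 was 7 with the red blood cell covariate. The part of these cells in the inflammatory and microglial results was not tested.

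Most complement and antigen presentation genes rose. Of 20 complement genes 18 rose and 0 fell (median 2.23). The C1q subunits C1qb (2.02 ± 0.15, adjusted p = 0.000143) and C1qc (2.30 ± 0.18), which start the classical cascade and are made by microglia in the brain, went from 22.8–26.6 CPM to 75.0–118 CPM and from 16.1–17.9 CPM to 59.0–102 CPM. Both stayed apart between the groups. Of 20 antigen presentation genes 17 rose and 0 fell (median 2.07), among them the class II chaperone RT1-DMb (2.20 ± 0.30), the peptide transporter Tap1 (3.0 ± 0.53) and the immunoproteasome subunits Psmb8 (2.67 ± 0.46) and Psmb9 (2.79 ± 0.50). The antigen presentation count of 17 was 10 on leaving out Sham-1 and 5 with the red blood cell covariate. RT1 genes have near-identical relatives, and reads could be split between them.

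**Figure D3:**
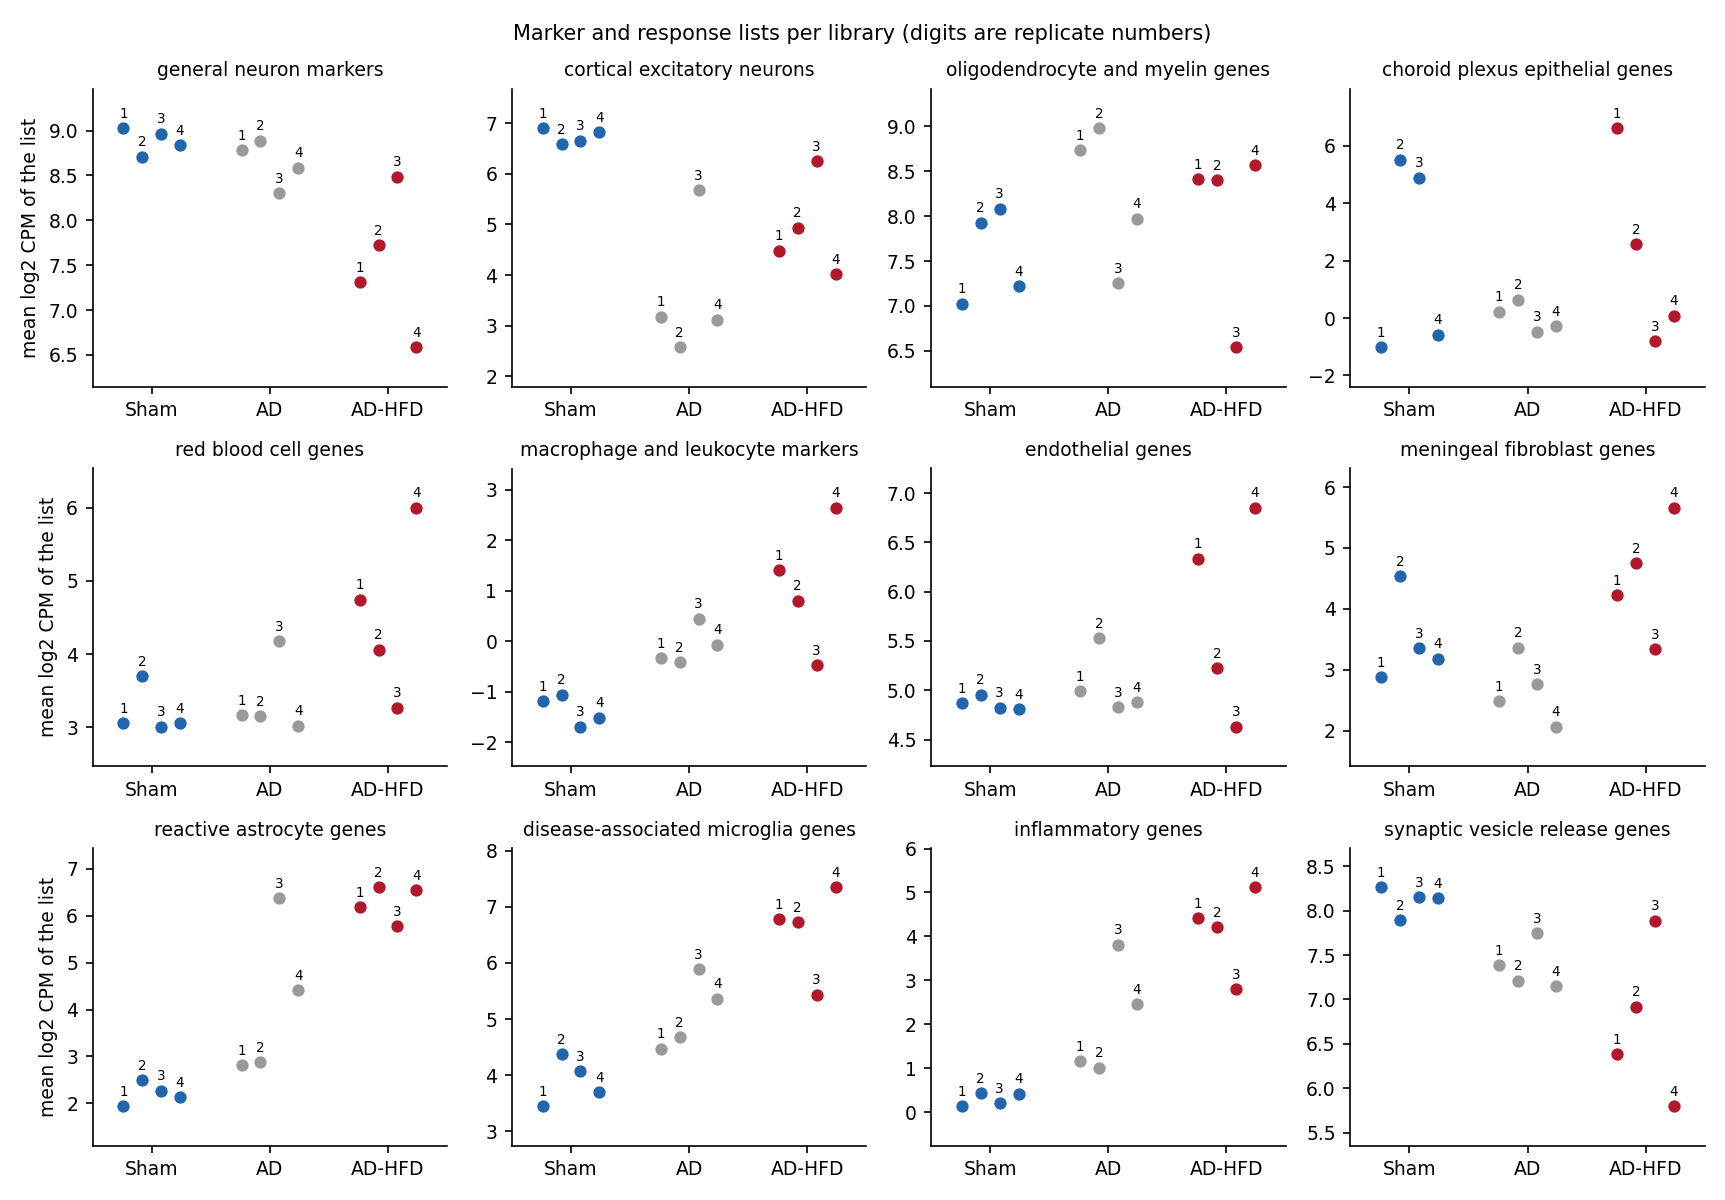
Mean log2 CPM of 12 gene lists (y axis, different in each panel) in each library of Sham, AD and AD-HFD (x axis), with digits for the replicate numbers. The Sham libraries lie at 1.94 to 2.49 for reactive astrocyte genes and AD-HFD at 5.77 to 6.60, while for neuron markers Sham lies at 8.71 to 9.02 and AD-HFD at 6.59 to 8.49, with AD-HFD-3 nearest to Sham.

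Interferon-induced genes were higher in part. Of 29 members 19 rose and 1 fell (median 1.84, also with Ifit1 at its bound). The membrane protein Ifitm3, which blocks virus entry, was at 4.82, 8.08, 8.23 and 6.96 CPM in Sham and 79.9, 129.7, 46.4 and 233 CPM in AD-HFD (4.13 ± 0.49, adjusted p = 0.00118). The GTPase Gbp2 went from 4.68–7.34 CPM to 25.7–169 CPM (4.22 ± 0.52), and the transcription factors Irf1 (2.69 ± 0.33) and Irf9 (1.68 ± 0.21) rose. AD-HFD-3 was lowest of its group in all 4, but none overlapped with Sham. The chemokine Cxcl10 also rose (3.57 ± 0.60), and the mitochondrial kinase Cmpk2 fell (-0.72 ± 0.19). The count of 19 was 7 with the red blood cell covariate. Promoter windows show which of these genes carry the core of the interferon-stimulated response element, TTTC and TTTC with 2 bases between them, in the 250 bases before the start site. It was searched on both strands in the windows of RefSeq's GRCr8 annotation, and is present in 902 of 27457 windows (3.29%). Of 16 called members with a window, which include the 1 that fell, 10 hold it, as do 4 of 5 members not called. A match describes the letters only. The 2 windows below are shown for a strong riser and for a chemokine of the list, with the match in capitals, which reads GAAA and GAAA on the strand printed.
Ifitm3 (chr1:205541759-205542008, minus strand): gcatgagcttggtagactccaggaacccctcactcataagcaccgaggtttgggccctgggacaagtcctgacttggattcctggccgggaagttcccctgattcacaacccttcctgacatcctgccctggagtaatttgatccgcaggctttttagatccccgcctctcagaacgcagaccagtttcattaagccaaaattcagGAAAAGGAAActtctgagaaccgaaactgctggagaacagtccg
Cxcl10 (chr14:15988816-15989065, plus strand): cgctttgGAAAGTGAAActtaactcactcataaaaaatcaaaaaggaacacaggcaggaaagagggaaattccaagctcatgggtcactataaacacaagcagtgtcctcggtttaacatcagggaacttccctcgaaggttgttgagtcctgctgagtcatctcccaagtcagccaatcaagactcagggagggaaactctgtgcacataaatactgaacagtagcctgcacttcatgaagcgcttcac

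Most heat shock genes rose. Of 21 heat shock genes 13 rose and 0 fell (median 0.65), and the rises were largest among the inducible and small chaperones. Hspa1a, the inducible Hsp70, was at 3.18, 3.19, 3.54 and 3.31 CPM in Sham and 339.5, 606, 171 and 604 CPM in AD-HFD (7.03 ± 0.45, adjusted p = 7.52e-05). Sham was uniform, and the lowest AD-HFD library, AD-HFD-3, was far above it. Hspb1, the small heat shock protein Hsp27, was at 3.15, 6.07, 6.43 and 4.25 CPM in Sham and 272, 650.2, 424 and 276 CPM in AD-HFD (6.37 ± 0.40). Bag3, the co-chaperone of Hsp70 in autophagy, went from 7.71–10.7 CPM to 63.4–106 CPM (3.24 ± 0.20), and its partner Hspb8 from 19.5–36.2 CPM to 72.1–125 CPM (1.88 ± 0.25). The constitutive chaperones Hspa8 (0.36 ± 0.17, adjusted p = 0.138) and Hsp90ab1 (0.24 ± 0.19) did not pass. Reads of Hspa1a could be shared with its close copies, so its value is uncertain. The count of 13 stayed within 1.5 times in every fit without 1 library and with the red blood cell covariate. The heat shock element, searched as GAANNTTC, which reads the same on both strands, was found in the 250 bases before the start of 8 of 10 called members with a window, of 2 of 8 not called, and of 1928 of all 27457 windows (7.02%). The 3 windows below are those of 2 strong risers and of Hsph1, an Hsp110 chaperone that rose less (1.14 ± 0.18), with the element in capitals.
Bag3 (chr1:192533210-192533459, plus strand): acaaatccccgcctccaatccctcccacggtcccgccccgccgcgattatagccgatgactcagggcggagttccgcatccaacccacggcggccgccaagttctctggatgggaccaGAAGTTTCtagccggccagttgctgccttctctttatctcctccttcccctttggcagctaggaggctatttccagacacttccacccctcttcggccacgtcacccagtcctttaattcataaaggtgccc
Hspb1 (chr12:26432302-26432551, minus strand): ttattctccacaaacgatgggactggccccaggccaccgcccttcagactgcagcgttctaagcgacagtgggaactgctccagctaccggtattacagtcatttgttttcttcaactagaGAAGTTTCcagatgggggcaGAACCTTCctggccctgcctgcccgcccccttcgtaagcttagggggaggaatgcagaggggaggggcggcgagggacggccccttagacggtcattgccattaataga
Hsph1 (chr12:10427118-10427367, plus strand): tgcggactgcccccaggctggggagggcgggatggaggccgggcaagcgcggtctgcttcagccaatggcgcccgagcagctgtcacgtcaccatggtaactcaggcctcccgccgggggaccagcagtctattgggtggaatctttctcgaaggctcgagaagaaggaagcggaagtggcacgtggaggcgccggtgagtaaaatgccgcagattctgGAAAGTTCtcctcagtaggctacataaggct

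Most genes of the unfolded protein and integrated stress responses rose. These pathways raise chaperones of the endoplasmic reticulum and slow translation when misfolded proteins build up. Of 24 genes 20 rose and 0 fell (median 1.01). Atf3, a stress-induced transcription factor, was at 0.263, 0.926, 1.19 and 1.00 CPM in Sham and 137, 159, 31.6 and 274 CPM in AD-HFD (7.49 ± 0.75, adjusted p = 0.000646). Sesn2, a sensor of amino acid stress, went from 12.8–17.0 CPM to 49.8–67.8 CPM (2.01 ± 0.15), the phosphatase regulator Ppp1r15a from 18.2–25.8 CPM to 62.4–203 CPM (2.43 ± 0.32) and the pseudokinase Trib3 from 0.128–0.438 CPM to 1.47–8.81 CPM (4.35 ± 0.63). Of the chaperones, Hspa5 (BiP) rose by 1.30 ± 0.22 and the secreted Creld2 by 1.93 ± 0.35. The sensor kinase Eif2ak3 (-0.11 ± 0.12) and the amino acid enzyme Asns (-0.12 ± 0.18) did not pass. The count of 20 was 13 with the red blood cell covariate. The endoplasmic reticulum stress element, CCAAT and CCACG with 9 bases between them on either strand, was found in 6 of 15 called members with a window, in 1 of 4 not called and in 21 of all 27457 windows (0.0765%). The windows of Hspa5 and Creld2 are printed because both are chaperone genes that rose and that hold the element, which stands in capitals and on the opposite strand in Creld2.
Hspa5 (chr3:38452766-38453015, plus strand): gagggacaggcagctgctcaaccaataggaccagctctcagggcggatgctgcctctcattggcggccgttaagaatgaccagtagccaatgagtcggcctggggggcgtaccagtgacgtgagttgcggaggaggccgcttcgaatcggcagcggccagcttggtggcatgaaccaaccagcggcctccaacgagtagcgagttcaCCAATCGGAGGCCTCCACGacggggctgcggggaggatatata
Creld2 (chr7:121789134-121789383, plus strand): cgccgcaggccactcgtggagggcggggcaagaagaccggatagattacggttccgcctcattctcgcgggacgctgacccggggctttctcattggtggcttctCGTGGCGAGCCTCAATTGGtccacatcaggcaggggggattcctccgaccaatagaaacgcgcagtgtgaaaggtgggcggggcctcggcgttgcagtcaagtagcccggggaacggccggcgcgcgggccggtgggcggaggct

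Of 21 antioxidant genes under the transcription factor NRF2 11 rose and 2 fell (median 1.2), where 20.6% of all genes were higher and 13.0% lower. The haem-degrading enzyme Hmox1 was at 4.12, 4.79, 4.93 and 3.71 CPM in Sham and 296, 317, 155 and 314 CPM in AD-HFD (5.96 ± 0.28, adjusted p = 1.65e-05), lowest in AD-HFD-3 but apart from Sham. Thioredoxin reductase Txnrd1 went from 76.3–84.7 CPM to 169.8–352 CPM (1.61 ± 0.21), the amino acid transporter chain Slc3a2 rose by 1.5 ± 0.21 and the oxidative stress growth inhibitor Osgin1 by 4.40 ± 0.77. The members that fell were Keap1, the NRF2 repressor (-0.55 ± 0.16), and the superoxide dismutase Sod1 (-0.49 ± 0.15). The count of 11 was 4 with the red blood cell covariate. The antioxidant response element core, TGACNNNGC on either strand, was in 3 of 12 called members with a window, in 2 of 6 not called and in 10.2% of all windows.

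Most genes of DNA damage and growth arrest rose, as did some genes of replication. Of 19 p53 targets and Gadd45 genes 14 rose and 1 fell (median 1.88). Gadd45a went from 6.39–11.2 CPM to 62.1–97.0 CPM (3.17 ± 0.21) and Gadd45b from 11–17.3 CPM to 94.7–131 CPM (2.90 ± 0.18), and the cell cycle inhibitor Cdkn1a rose by 3.30 ± 0.38. Of 21 proliferation genes 8 rose and 0 fell (median 0.90). The replication clamp Pcna was at 34.6, 46.1, 47.5 and 42.6 CPM in Sham and 119.8, 99.6, 84.4 and 126 CPM in AD-HFD (1.35 ± 0.16, adjusted p = 0.00133). The helicase subunits Mcm3 (2.96 ± 0.47), Mcm4 (0.92 ± 0.12) and Mcm6 (1.94 ± 0.30) rose, whereas the mitotic markers Mki67 (0.61 ± 0.32, adjusted p = 0.164) and Top2a (0.49 ± 0.59) did not pass. The proliferation count of 8 was 15 on leaving out AD-HFD-3.

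Immediate early genes, which respond within minutes to neuronal activity, growth factors or stress, rose in most cases. Of 29 members 17 rose and 0 fell (median 1.98). Fos was at 10.9, 9.23, 12.2 and 14.4 CPM in Sham and 181, 205, 144 and 393 CPM in AD-HFD (4.31 ± 0.34, adjusted p = 0.000181), and Jun went from 68.6–86.3 CPM to 317–758 CPM (2.69 ± 0.28). Fosl1, another AP-1 subunit, rose by 3.46 ± 0.26. All 3 were highest in AD-HFD-4 and apart from Sham. Among the 12 members that did not pass were Arc (0.12 ± 0.23, adjusted p = 0.714), Homer1 (-0.10 ± 0.39) and the nuclear receptor Nr4a1 (-0.57 ± 0.21, adjusted p = 0.0651). Nr4a1 was at 67.9, 51.1, 72.5 and 79.5 CPM in Sham and 35.4, 44.6, 38.0 and 63.2 CPM in AD-HFD, and the ranges overlapped through AD-HFD-4. It passed, as lower, without AD-HFD-4 (adjusted p = 0.0156 by edgeR) and without Sham-2 (0.0495). The count of 17 stayed within 1.5 times in every fit without 1 library and with the red blood cell covariate.

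Most genes listed as matrix and plasminogen proteases or serpins rose, as did most collagen, laminin and CCN genes. Of 25 members of the protease list 15 rose and 3 fell (median 2.70, also with Mmp13 at its bound). Plau, the urokinase that activates plasminogen, was at 0.934, 0.447, 0.748 and 0.502 CPM in Sham and 17.1, 18.2, 16.7 and 27.9 CPM in AD-HFD (4.92 ± 0.31, adjusted p = 7.52e-05). The stromelysin Mmp3 was at 0, 0, 0.136 and 0 CPM in Sham and 20.8, 3.47, 2.5 and 7.38 CPM in AD-HFD (7.90 ± 1.06). Neuroserpin, Serpini1 (-1.62 ± 0.35), and the brain metalloproteinases Mmp17 (-2.0 ± 0.40) and Mmp24 (-0.71 ± 0.22) fell. Of 29 collagen, laminin and CCN matrix genes 24 rose and 0 fell (median 2.12). Cyr61, a matrix protein of the CCN family, was at 1.37, 1.76, 1.29 and 1.51 CPM in Sham and 109.7, 84.6, 40.6 and 388 CPM in AD-HFD (6.72 ± 0.76). The laminin chain Lamc1 went from 25.6–29.2 CPM to 82.8–373 CPM (2.79 ± 0.42), the cytokine Tgfb1 from 7.21–8.67 CPM to 28.5–176 CPM (3.46 ± 0.49), and the fibril-associated collagen Col12a1 rose by 2.16 ± 0.28. The matrix count of 24 was 14 to 15 on leaving out Sham-1, Sham-3 or Sham-4 and 13 with the red blood cell covariate.

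Many vascular and meningeal genes rose, and of the 12 risers named here all but Tagln were highest in AD-HFD-4. Of 17 endothelial genes 8 rose and 0 fell (median 0.82). Slc2a1, the glucose transporter of the blood-brain barrier, was at 111, 109, 118 and 109 CPM in Sham and 327, 386, 395 and 702 CPM in AD-HFD (2.03 ± 0.24, adjusted p = 0.00111). The junction proteins Cdh5 (3.03 ± 0.67) and Esam (3.16 ± 0.66) rose, with 349 and 377 CPM in AD-HFD-4 and 29.9 and 31.7 CPM in AD-HFD-3. The amino acid carrier Slc7a5 rose less (0.82 ± 0.15). The barrier transporters Mfsd2a (-0.08 ± 0.25) and Slco1a4 (-0.62 ± 0.60) did not pass. The endothelial count of 8 was 4 with the red blood cell covariate. Of 14 pericyte and smooth muscle genes 10 rose and 1 fell (median 1.29), among the risers Des (3.11 ± 0.58), Tagln (2.79 ± 0.52), Pdgfrb (1.43 ± 0.31) and Anpep (2.64 ± 0.57). The pericyte count of 10 was 6 on leaving out Sham-1, Sham-3 or Sham-4 and 2 with the red blood cell covariate. Of 16 meningeal fibroblast genes 8 rose and 0 fell (median 1.63), with a summed level of 156 to 909 CPM in Sham and 334 to 1832 CPM in AD-HFD. The calcification inhibitor Mgp was at 8.93, 16, 10.8 and 9.0 CPM in Sham and 84.0, 161, 63.9 and 560.1 CPM in AD-HFD (4.29 ± 0.71), and Col3a1 (3.02 ± 0.66), Dcn (2.84 ± 0.66) and Bgn (2.02 ± 0.47) rose. The meningeal count of 8 was 4 to 5 on leaving out AD-HFD-2, AD-HFD-4, Sham-1, Sham-3 or Sham-4 and 1 with the red blood cell covariate.

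Red blood cell genes moved with the vascular ones. Of 7 red blood cell genes 4 rose and 0 fell (median 2.61). The haem enzyme Alas2 was at 0.321, 1.28, 0.612 and 0.435 CPM in Sham and 5.49, 3.44, 1.12 and 22.6 CPM in AD-HFD (3.63 ± 0.92), and the globins Hbb (2.98 ± 0.78), Hba-a1 (2.61 ± 0.73) and Hba-a2 (2.68 ± 0.76) rose. AD-HFD-3 overlapped with Sham in all 4. The count of 4 was 0 on leaving out Sham-1, Sham-3 or Sham-4. Globin genes have near-identical copies, and some members of the list are also expressed by brain cells. None of 15 choroid plexus genes passed in either direction (median 0.31), and their summed level spanned 144 to 5948 CPM in Sham and 89.2 to 13162 CPM in AD-HFD. With the choroid plexus list mean as a covariate 6272 genes were called, and with the red blood cell mean 2405, of which 2157 were among the 6101. The red blood cell mean differs between the groups itself, so these covariates cannot give the part of blood and vessel content in the other results. That part was not tested.

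Most of the Notch signalling genes rose. Of 19 members 12 rose and 1 fell (median 1.05). Rbpj, the transcription factor of the pathway, was at 35.5, 41.4, 35 and 34.3 CPM in Sham and 112, 95.8, 92.4 and 114 CPM in AD-HFD (1.51 ± 0.13, adjusted p = 0.000232). The endothelial ligand Dll4 (4.80 ± 0.72) and receptor Notch4 (2.88 ± 0.54) rose, each highest in AD-HFD-4. Hes5, a Notch target of neural stem cells and astrocytes, was at 5.69, 5.75, 5.54 and 6.76 CPM in Sham and 0.493, 0.319, 1.03 and 0.332 CPM in AD-HFD (-3.42 ± 0.36, adjusted p = 0.0008), among the 12 largest falls. The count of 12 was 6 to 7 on leaving out Sham-1, Sham-2 or Sham-3 and 3 with the red blood cell covariate.

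**Figure D4:**
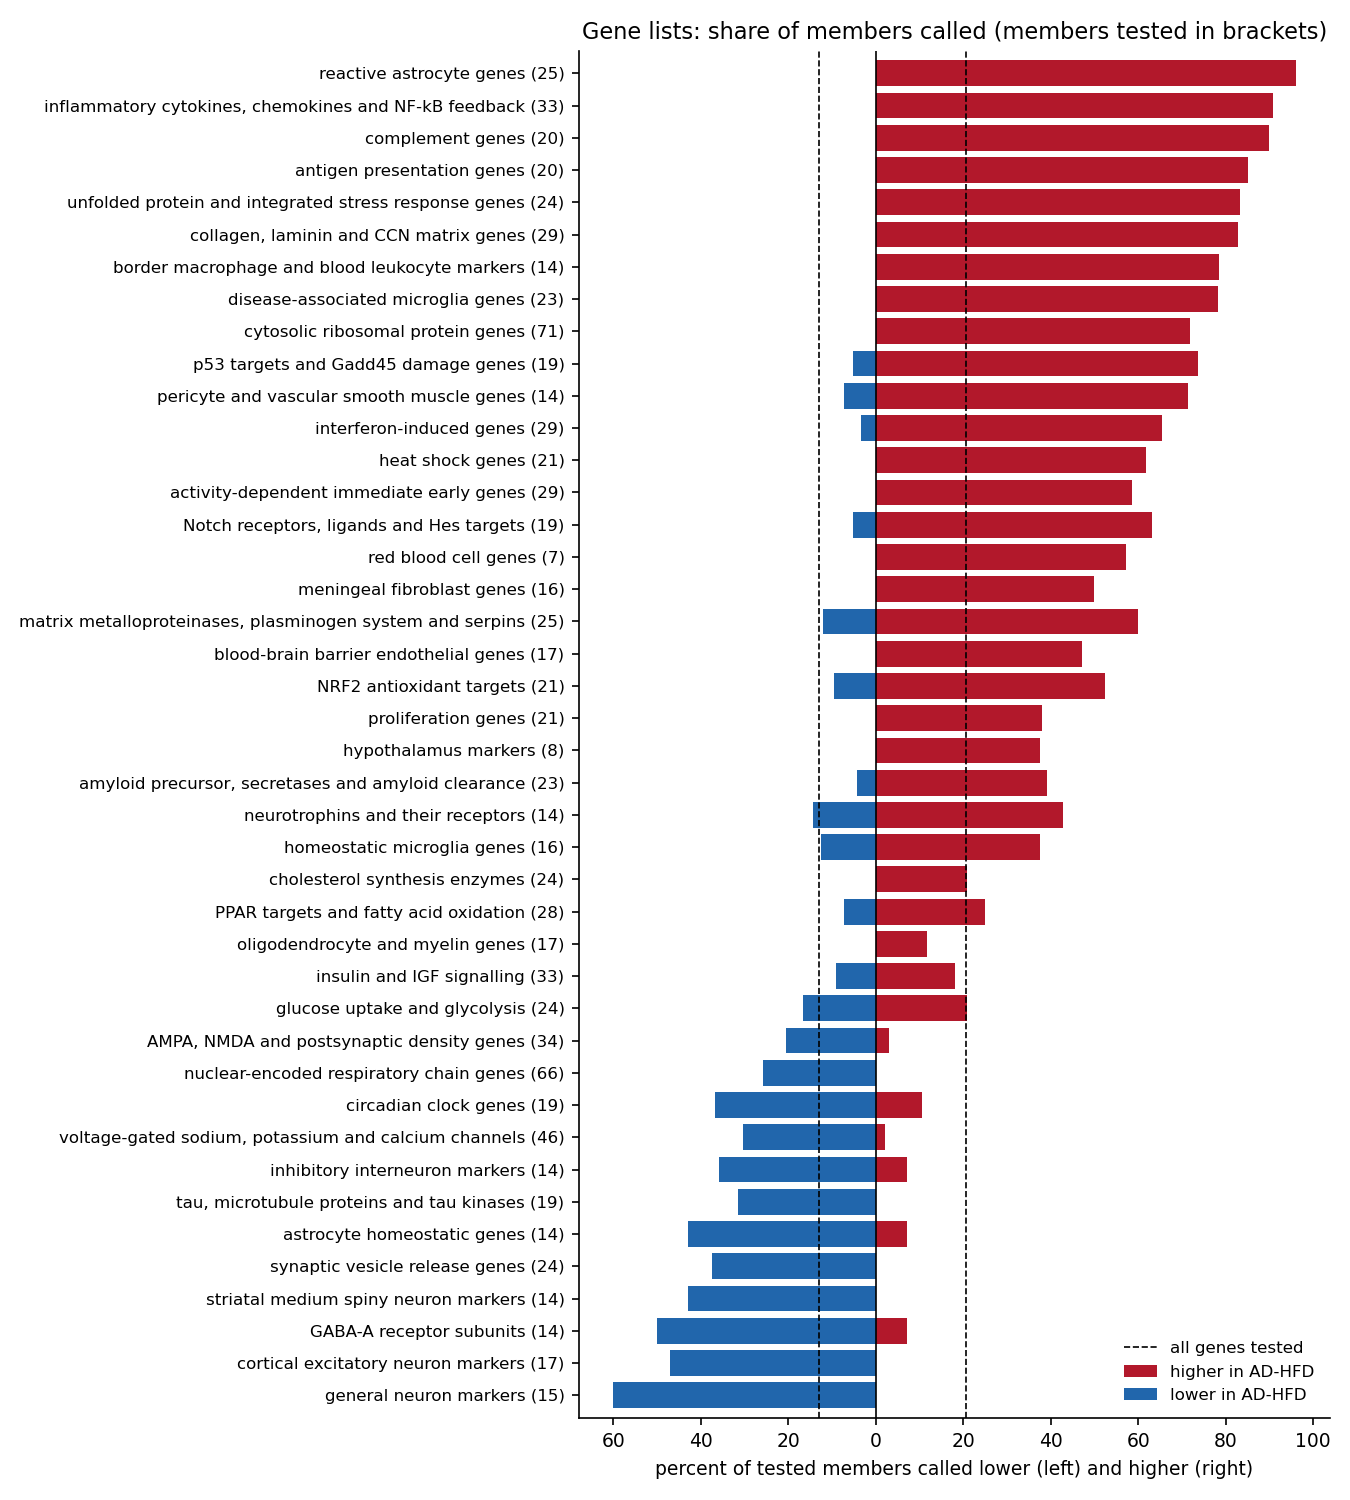
Percent of the tested members of 42 gene lists called higher (right, red) and lower (left, blue) in AD-HFD, with the number tested in brackets. Dashed lines mark all genes tested, 20.6% higher and 13.0% lower; reactive astrocyte genes are at the top and general neuron markers at the bottom.

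Most general neuron markers fell. Of 15 general neuron markers 9 fell and 0 rose, with a median of -1.27, against 13.0% lower among all genes. Thy1, a surface protein of projection neurons, was at 1131, 794, 1089 and 1039 CPM in Sham and 255, 364, 648 and 198 CPM in AD-HFD (-1.45 ± 0.36, adjusted p = 0.0168). AD-HFD-3 was highest of its group and AD-HFD-4 lowest, but the groups did not overlap. The neurofilaments Nefm (-1.91 ± 0.47) and Nefh (-1.55 ± 0.33) fell, as did the neuronal tubulin Tubb3 (-1.38 ± 0.35), whose call was lost on leaving out Sham-1. The count of 9 was 3 to 4 on leaving out AD-HFD-1, AD-HFD-2, Sham-1, Sham-3 or Sham-4, 14 on leaving out AD-HFD-3 and 3 with the red blood cell covariate.

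Markers of several neuron classes fell in part, where 13.0% of all genes were lower and 20.6% higher. Of 17 cortical excitatory markers 8 fell and 0 rose (median -1.5). Lamp5, a membrane protein of cortical neurons, was at 287, 218, 282 and 269 CPM in Sham and 29.1, 29.4, 75.1 and 17.4 CPM in AD-HFD (-2.79 ± 0.42, adjusted p = 0.00289). The transcription factor Mef2c was at 525, 535, 412 and 515 CPM in Sham and 101, 91.7, 253 and 77.2 CPM in AD-HFD (-1.91 ± 0.37), and Lmo4 fell by 1.28 on the log2 scale. Nrgn, a calmodulin-binding protein of spines, fell (-1.72 ± 0.48), but its call was lost on leaving out AD-HFD-1, AD-HFD-2, AD-HFD-4, Sham-1, Sham-3 or Sham-4. The cortical count of 8 was 3 to 4 on leaving out any 1 Sham library or AD-HFD-1, AD-HFD-2 or AD-HFD-4, 15 on leaving out AD-HFD-3 and 3 with the red blood cell covariate. Of 14 interneuron markers 5 fell and 1 rose (median -0.87). The developmental factors Dlx1 (-1.91 ± 0.41) and Dlx5 (-1.80 ± 0.31) fell, and so did Pvalb (-1.94 ± 0.51), the calcium buffer of fast-spiking cells, with its call lost on leaving out AD-HFD-2, Sham-1 or Sham-4. The neuropeptide Npy was the riser, at 32.3, 16.8, 31.9 and 28.4 CPM in Sham and 37.4, 61.7, 85.0 and 45.8 CPM in AD-HFD (1.08 ± 0.30), with its call lost on leaving out AD-HFD-2, Sham-2, Sham-3 or Sham-4. The interneuron count of 5 was 2 to 3 on leaving out AD-HFD-1, Sham-1, Sham-3 or Sham-4 and 2 with the red blood cell covariate. Of 14 striatal markers 6 fell and 0 rose (median -0.94). Sham was uneven in this list. Its mean log2 CPM was 5.07, 4.57, 5.81 and 4.15 in Sham-1 to Sham-4 and 3.54 to 4.19 in AD-HFD, so the ranges overlapped. Its summed level did not overlap, at 560 to 1347 CPM in Sham and 307 to 502 CPM in AD-HFD. The orphan receptor Gpr6 fell by 3.09 on the log2 scale, from 5.69, 3.54, 19.6 and 4.08 CPM in Sham to 0.625–1.75 CPM in AD-HFD. The peptide gene Penk (-1.25 ± 0.35) and the phosphatase inhibitor Ppp1r1b (-1.24 ± 0.34) also fell, with both calls lost on leaving out AD-HFD-1, AD-HFD-4, Sham-1 or Sham-3, and the phosphodiesterase Pde10a fell (-1.58 ± 0.45), with its call lost on leaving out AD-HFD-1, AD-HFD-2, AD-HFD-4, Sham-1 or Sham-3. Gpr6, Penk, Ppp1r1b and Pde10a were each highest in Sham-3, though none of them overlapped between the groups. The striatal count of 6 was 1 to 3 on leaving out AD-HFD-1, AD-HFD-2, AD-HFD-4, Sham-1 or Sham-3 and 0 with the red blood cell covariate.

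Some synaptic release genes fell, and how many passed depended on single libraries. Of 24 members 9 fell and 0 rose (median -1.18), against 13.0% lower among all genes. Snap25, a SNARE protein, was at 4287, 3215, 3693 and 3941 CPM in Sham and 859, 1010.0, 2416 and 609 CPM in AD-HFD (-1.61 ± 0.43, adjusted p = 0.0224). The groups did not overlap, and AD-HFD-3 lay nearest to Sham. The call of Snap25 was lost on leaving out AD-HFD-1, AD-HFD-2, Sham-1, Sham-3 or Sham-4, as were those of the vesicle GTPase Rab3a (-1.64 ± 0.44) and of Vamp1 (-1.30 ± 0.36). Complexin 2, Cplx2, fell (-1.52 ± 0.40), with its call lost on leaving out Sham-1 or Sham-4. The count of 9 was 0 to 4 on leaving out any 1 Sham library or AD-HFD-1 or AD-HFD-2, 21 on leaving out AD-HFD-3 and 1 with the red blood cell covariate.

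Receptors and channels showed the same dependence. The counts here from the fit of all 8 libraries without a covariate are to be read against the 13.0% lower and 20.6% higher over all genes. Of 34 glutamate receptor and postsynaptic genes 7 (20.6%) fell and 1 rose (median -1.12). The AMPA receptor subunit Gria3 was at 400.4, 297, 298 and 336 CPM in Sham and 48.4, 55.5, 184 and 35.1 CPM in AD-HFD (-2.03 ± 0.50, adjusted p = 0.0164), and its auxiliary subunit Cacng3 went from 134–189 CPM to 19.7–73.5 CPM (-1.99 ± 0.38). Gria4 fell (-1.32 ± 0.38), with its call lost on leaving out AD-HFD-1, AD-HFD-2, Sham-1, Sham-2, Sham-3 or Sham-4. The scaffold Homer3 was the riser (1.6 ± 0.26). The postsynaptic count of 7 was 2 to 3 on leaving out any 1 Sham library or AD-HFD-1 or AD-HFD-2, 29 on leaving out AD-HFD-3 and 2 with the red blood cell covariate. Of 14 GABA-A receptor subunits 7 fell and 1 rose (median -1.26). Gabrd, the delta subunit of tonic inhibition, was at 87.6, 59.5, 64.7 and 85.7 CPM in Sham and 7.98, 17.5, 23.9 and 4.55 CPM in AD-HFD (-2.45 ± 0.47). Gabra5 (-1.90 ± 0.44) and Gabra4 (-1.94 ± 0.49) fell, the latter not without AD-HFD-1, while the epsilon subunit Gabre rose (3.85 ± 0.77). The GABA-A count of 7 was 3 to 4 on leaving out AD-HFD-1, AD-HFD-2, Sham-1, Sham-2 or Sham-4 and 2 with the red blood cell covariate. Of 46 sodium, potassium and calcium channel genes 14 fell and 1 rose (median -0.99). Scn4b, a sodium channel beta subunit, was at 188, 127, 266 and 85.6 CPM in Sham and 18.0, 26.3, 34.4 and 10.3 CPM in AD-HFD (-2.88 ± 0.45, adjusted p = 0.00320). The potassium channel subunits Kcns1 (-2.28 ± 0.38) and Kcnv1 (-2.01 ± 0.40) and the pacemaker channel Hcn2 (-0.99 ± 0.17) fell. The channel count of 14 was 6 to 9 on leaving out any 1 Sham library or AD-HFD-1 or AD-HFD-2, 39 on leaving out AD-HFD-3 and 8 with the red blood cell covariate.

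Genes of the amyloid pathway rose in part, without App itself. Of 23 members 9 rose and 1 fell (median 0.25), where 20.6% of all genes were higher and 13.0% lower. App was at 2583, 2139, 2307 and 2265 CPM in Sham and 1443, 1635, 2087 and 1407 CPM in AD-HFD (-0.49 ± 0.22, adjusted p = 0.108). The groups did not overlap, yet the gene did not pass, except without AD-HFD-3. Picalm, an endocytic adaptor, was at 199.5, 236, 217 and 192 CPM in Sham and 743, 685, 357 and 638 CPM in AD-HFD (1.54 ± 0.23, adjusted p = 0.00274). The amyloid-degrading proteases Ece1 (2.88 ± 0.48) and Ide (0.83 ± 0.18) and the adaptor Cd2ap (1.82 ± 0.40) rose, and so did the alpha-secretases Adam10 (0.58 ± 0.18) and Adam17 (1.56 ± 0.36), both with ranges that overlapped with Sham. Beta-secretase Bace1 (-0.20 ± 0.20, adjusted p = 0.444) did not pass. Apoe, the lipid carrier and risk gene, was at 1726, 1926, 1924 and 2199 CPM in Sham and 1345, 2066, 1427 and 2054 CPM in AD-HFD (-0.16 ± 0.22, adjusted p = 0.591), with overlapping ranges. The amyloid count of 9 was 5 on leaving out AD-HFD-1, AD-HFD-2, AD-HFD-4, Sham-1, Sham-2 or Sham-3 and 3 with the red blood cell covariate.

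Some genes of tau and microtubules fell. Of 19 members 6 fell and 0 rose (median -0.78), against 13.0% lower among all genes. Mapt, which encodes tau, was at 628, 559, 578 and 562 CPM in Sham and 211, 281, 446 and 181 CPM in AD-HFD (-1.04 ± 0.27, adjusted p = 0.0211). Its groups did not overlap, but the call was lost on leaving out AD-HFD-1, Sham-1 or Sham-4. Stmn1, a microtubule destabiliser, was at 926, 791, 811 and 721 CPM in Sham and 414, 425, 352 and 409 CPM in AD-HFD (-1.01 ± 0.15). The tau kinase Cdk5 (-0.93 ± 0.18) and the stabiliser Map6 (-0.89 ± 0.20) fell, while the tau kinase Gsk3b (-0.19 ± 0.17) did not pass. The count of 6 was 3 on leaving out Sham-1 or Sham-4, 16 on leaving out AD-HFD-3 and 2 with the red blood cell covariate.

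Insulin and IGF signalling genes had a median near 0, with large changes in single members. Of 33 insulin and IGF signalling genes 6 rose and 3 fell (median 0.00), against 20.6% and 13.0% of all genes. Besides Socs3 and Igf1, the carrier Igfbp3 (3.22 ± 0.50) and the receptor Igf1r (1.07 ± 0.17) rose. Igf1r was at 7.21, 6.07, 5.44 and 5.92 CPM in Sham and 11.46, 13.5, 12.5 and 13.9 CPM in AD-HFD. Insr, the insulin receptor, was at 28.1, 31.5, 25.5 and 24.5 CPM in Sham and 39.2, 35.3, 31.7 and 70.7 CPM in AD-HFD (0.70 ± 0.25, adjusted p = 0.0578). The ranges of Insr were apart, but it passed only without AD-HFD-3. The substrates Irs1 (0.13 ± 0.22) and Irs2 (0.25 ± 0.25) and the kinase Akt2 (0.00 ± 0.15) did not pass. The count of 3 lower genes was 7 on leaving out AD-HFD-3 and 0 with the red blood cell covariate.

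The lipid lists were called about as often as all genes, with large rises in single members. Of 28 PPAR targets and fatty acid oxidation genes 7 rose and 2 fell (median 0.43), where 20.6% of all genes were higher and 13.0% lower. Plin2, the coat protein of lipid droplets, was at 9.87, 12.7, 11.4 and 9.77 CPM in Sham and 140.4, 121, 83.2 and 289 CPM in AD-HFD (3.87 ± 0.38, adjusted p = 0.000544). Angptl4, an inhibitor of lipoprotein lipase, went from 4.22–5.72 CPM to 39.4–196 CPM (4.29 ± 0.49). Both were lowest in AD-HFD-3 and highest in AD-HFD-4. Pdk4, which turns fuel use from glucose to fat, was at 2.04, 3.80, 3.16 and 2.24 CPM in Sham and 20, 18.3, 3.81 and 34.1 CPM in AD-HFD (2.77 ± 0.57), so AD-HFD-3 barely cleared the Sham range. The nuclear receptor Ppard rose (0.95 ± 0.20), whereas Ppara (0.22 ± 0.32) and the carnitine transferase Cpt1a (0.82 ± 0.43, adjusted p = 0.162) did not pass. The count of 7 was 15 on leaving out AD-HFD-3 and 2 with the red blood cell covariate. Of 24 cholesterol synthesis and uptake genes 5 rose and 0 fell (median 0.14), so the share that rose was near the 20.6% over all genes. Msmo1, a sterol oxidase, was at 152, 183, 168 and 151 CPM in Sham and 327, 336, 296 and 306 CPM in AD-HFD (0.97 ± 0.12, adjusted p = 0.00146). The isomerase Idi1 rose (1.28 ± 0.27), and the demethylase Cyp51 rose (0.59 ± 0.15) with its call lost on leaving out AD-HFD-2, Sham-1, Sham-3 or Sham-4. The cholesterol count of 5 was 3 on leaving out AD-HFD-2, Sham-1 or Sham-4 and 1 with the red blood cell covariate. Lipm, a lipase family gene, was at 0.847, 0.319, 0.204 and 0.301 CPM in Sham and 2.66, 2.07, 2.34 and 3.76 CPM in AD-HFD (2.66 ± 0.43, adjusted p = 0.00391), with no overlap, and was called in all 8 fits without 1 library.

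Glucose uptake and glycolysis genes were called about as often as all genes in both directions, and respiratory chain genes were called more often in the lower direction. Of 24 glucose uptake and glycolysis genes 5 rose and 4 fell (median -0.17), against 20.6% and 13.0% over all genes. The lactate exporter Slc16a3 was at 1.78, 2.49, 2.35 and 1.27 CPM in Sham and 12.1, 18.3, 14.7 and 22.5 CPM in AD-HFD (3.11 ± 0.28, adjusted p = 0.00037), the inducible hexokinase Hk2 went from 5.92–7.73 CPM to 24.8–54.8 CPM (2.61 ± 0.28) and the regulatory enzyme Pfkfb3 from 49.1–59.1 CPM to 127–178 CPM (1.49 ± 0.16). The neuronal and astrocytic members Pfkm (-1.18 ± 0.27), Ldhb (-0.84 ± 0.15) and Aldoc (-0.65 ± 0.18) fell. The count of 4 lower genes was 2 on leaving out AD-HFD-1, Sham-1, Sham-3 or Sham-4, 12 on leaving out AD-HFD-3 and 2 with the red blood cell covariate. Of 66 nuclear-encoded respiratory chain genes 17 fell, all by less than 1 on the log2 scale, and 0 rose (median -0.30). Ndufs3, a subunit of complex I, was at 105, 86.0, 108 and 108 CPM in Sham and 59.9, 62.5, 63.5 and 51.2 CPM in AD-HFD (-0.77 ± 0.13, adjusted p = 0.00471). Ndufb4 (-0.67 ± 0.12), Ndufs4 (-0.57 ± 0.13) and Sdha of complex II (-0.64 ± 0.14) fell too. The respiratory count of 17 was 6 to 7 on leaving out AD-HFD-2, Sham-1, Sham-3 or Sham-4 and 2 with the red blood cell covariate. Mitochondrially encoded genes took 10.9% ± 0.388 of counts in Sham and 10% ± 0.850 in AD-HFD (SD, n = 4). The difference of -0.884 percentage points did not pass a two-sided exact permutation test (p = 0.143, where 4 against 4 allows no less than 0.0286).

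**Figure D5:**
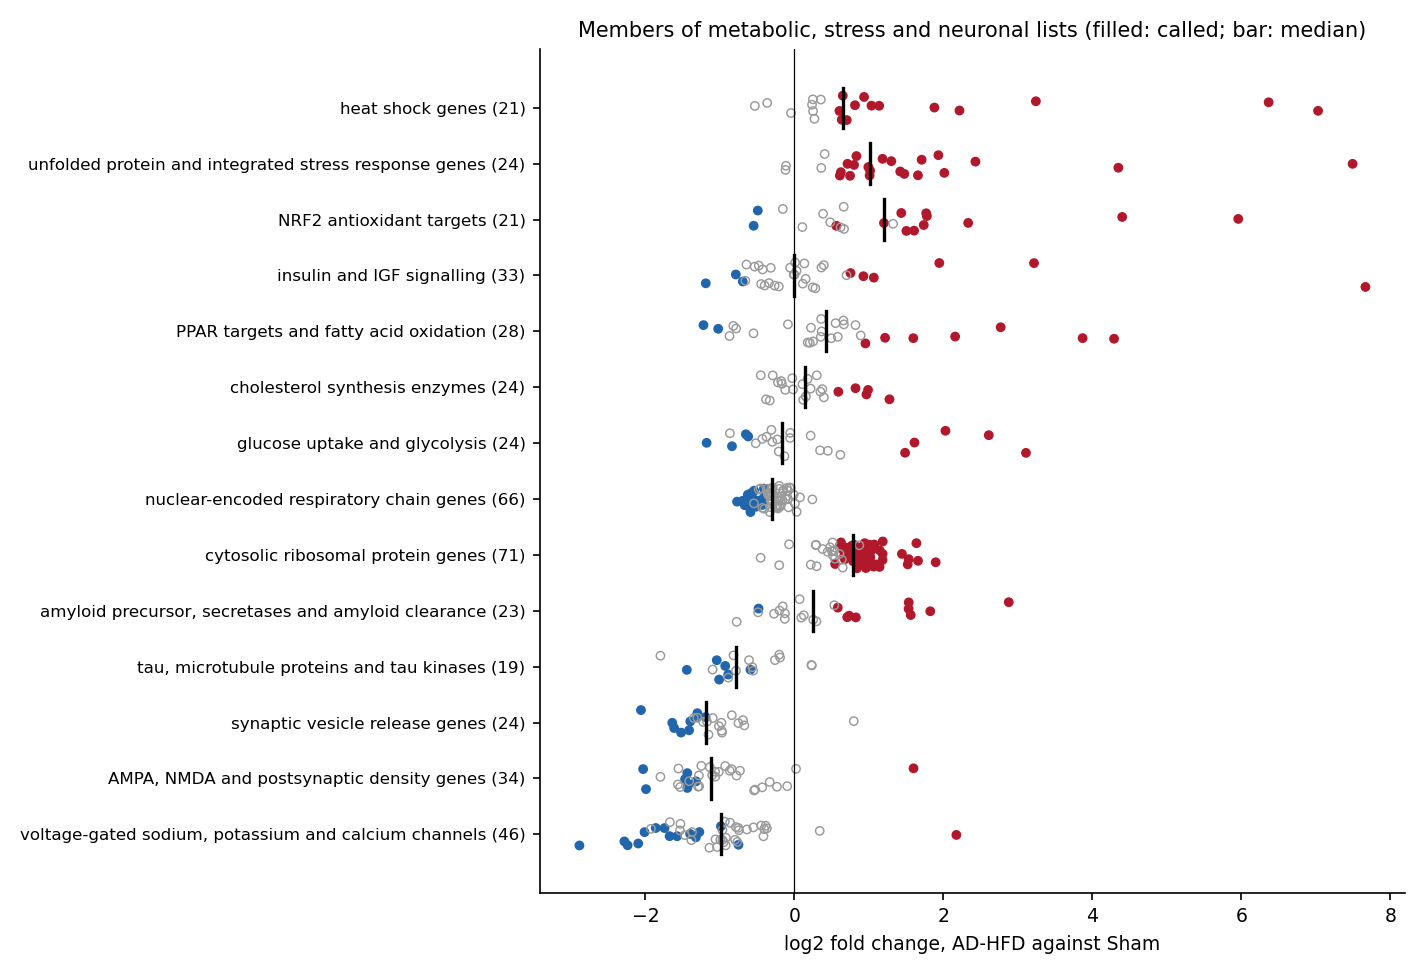
Log2 fold change, AD-HFD against Sham (x axis), of every tested member of 14 lists (rows, number tested in brackets); filled points were called, open points were not, and black bars are medians. Synaptic release genes lie left of 0 except for 1 (median -1.18), while insulin genes scatter around 0 (median 0.00) with Socs3 at 7.67.

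Most ribosomal protein genes rose. Of 71 members 51 rose and 0 fell (median 0.79). Rpl12 was at 69.8, 85.9, 81.3 and 75.0 CPM in Sham and 230.2, 211, 153 and 384 CPM in AD-HFD (1.66 ± 0.26, adjusted p = 0.00308). Rps20 (1.52 ± 0.23), Rplp0 (1.54 ± 0.28) and Rps12 (1.90 ± 0.38) rose, and all 4 were highest in AD-HFD-4. The count of 51 was 15 to 29 on leaving out any 1 Sham library or AD-HFD-1, AD-HFD-2 or AD-HFD-4 and 6 with the red blood cell covariate. Many ribosomal protein genes have processed copies, so their values are uncertain.

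The circadian clock list held genes that moved apart. Of 19 members 2 rose and 7 fell (median -0.40). Besides Dbp, the related activator Hlf was at 29.4, 29.6, 29.3 and 28.3 CPM in Sham and 2.79, 4.33, 8.69 and 2.66 CPM in AD-HFD (-2.64 ± 0.37, adjusted p = 0.00221). Nfil3, which represses the targets that Dbp and Hlf activate, was at 7.62, 7.06, 7.51 and 7.06 CPM in Sham and 59.1, 64.9, 41.1 and 80.3 CPM in AD-HFD (3.08 ± 0.21, adjusted p = 9.09e-05). The repressor Cry1 rose (1.01 ± 0.16), while the core genes Arntl (-0.11 ± 0.20), Clock (0.26 ± 0.12) and Per2 (-0.28 ± 0.23) did not pass. The times of tissue collection are not given in the labels. The count of 7 stayed within 1.5 times in every fit without 1 library and with the red blood cell covariate.

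Growth factors and neuropeptides included some of the largest rises. Of 14 neurotrophic factors and receptors 6 rose and 2 fell (median 1.16). The cytokine Lif was at 0.175, 0, 0 and 0.0669 CPM in Sham and 15.5, 24.2, 36.3 and 42.5 CPM in AD-HFD (8.78 ± 0.65, adjusted p = 1.79e-05). The receptors Ret (3.54 ± 0.67) and Ngfr (3.57 ± 0.72) rose unevenly: Ret was lowest in AD-HFD-4, at 4.52 CPM, and Ngfr in AD-HFD-3, at 2.56 CPM. The sorting receptor Sort1 fell (-1.02 ± 0.20), and Bdnf did not pass (1.01 ± 0.48, adjusted p = 0.130). Of 8 peptide and transcription factor genes listed as hypothalamic markers 3 rose and 0 fell. Trh, the thyrotropin-releasing hormone gene, was at 0.555, 0.319, 0.340 and 0.234 CPM in Sham and 29.5, 43.9, 80.8 and 149 CPM in AD-HFD (7.68 ± 0.64, adjusted p = 0.000231). Avp (3.84 ± 0.46) and Gal (3.19 ± 0.48) rose as well, with Avp at no more than 3.66 CPM in AD-HFD. Pmch (1.96 ± 0.77, adjusted p = 0.0760) and Hcrt (-0.85 ± 0.85), which mark neurons of the lateral hypothalamus, did not pass. Without AD-HFD-3, Pmch did pass as higher (adjusted p = 0.00421). The count of 3 was 5 on leaving out AD-HFD-3.

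Among the other large falls were receptors and enzymes at low levels. Tacr3, the neurokinin B receptor, was at 20.5, 14, 16.8 and 18.0 CPM in Sham and 2.96, 1.82, 2.81 and 0.266 CPM in AD-HFD (-3.12 ± 0.52, adjusted p = 0.00417). The olfactory receptor gene Olr59 was at 24.2, 20.7, 18.8 and 23.1 CPM in Sham and 1.58, 0.828, 6.19 and 2.19 CPM in AD-HFD (-2.99 ± 0.53). Adprhl1, an ADP-ribosylhydrolase relative, went from 2.74–7.18 CPM to 0.131–0.594 CPM (-3.99 ± 0.47). Below 6 CPM in each of the 8 libraries compared were Tpte2 (-4.18 ± 0.73), the receptor scaffold Grid2ip (-3.24 ± 0.59), the lamin-tail gene Lmntd2 (-2.90 ± 0.53), the NADPH oxidase Nox3 (-2.88 ± 0.69), the metalloprotease Adam33 (-2.88 ± 0.62) and the chemokine scavenger Ackr2 (-3.29 ± 0.82), whose call was lost on leaving out AD-HFD-2 or Sham-4.

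Most myelin genes leaned higher, but few passed. Of 17 oligodendrocyte genes 2 rose and 0 fell (median 0.53), against 20.6% higher over all genes, while 14 had a log2 fold change above 0. Mean log2 CPM of the list was 6.54 in AD-HFD-3 and 8.40 to 8.57 in the other AD-HFD libraries, against 7.02 to 8.08 in Sham. The tight junction gene Cldn11 (1.56 ± 0.48) and the transcription factor Myrf (0.99 ± 0.31) were called, but both calls were lost on leaving out AD-HFD-1, AD-HFD-2, AD-HFD-4, Sham-1, Sham-2 or Sham-4. Mag was at 209, 347, 422 and 226 CPM in Sham and 629, 867, 239 and 808 CPM in AD-HFD (1.10 ± 0.39, adjusted p = 0.0574), so AD-HFD-3 lay within the Sham range. Sox10 (0.78 ± 0.31) did not pass. Cldn11, Myrf, Mag and Sox10 each passed without AD-HFD-3. The myelin count of 2 was 0 on leaving out AD-HFD-1, AD-HFD-2, AD-HFD-4, Sham-1, Sham-2 or Sham-4, 9 on leaving out AD-HFD-3 and 0 with the red blood cell covariate.

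Some further lists gave smaller or unsteady counts. Those from the fit of all 8 libraries without a covariate are to be read against the 20.6% higher and 13.0% lower over all genes. Of 18 glucocorticoid response genes 8 rose and 2 fell, and the higher count was 5 with the red blood cell covariate. Of 17 iron genes 9 rose and 0 fell, and the count of 9 was 4 to 5 on leaving out any 1 Sham library or AD-HFD-1 and 3 with the red blood cell covariate. Of 12 cathepsin genes 6 rose and 0 fell, and the count of 6 was 10 on leaving out AD-HFD-3. Of 30 proteasome subunits 7 rose and 1 fell, and the count of 7 was 0 to 2 on leaving out any 1 Sham library or AD-HFD-1, AD-HFD-2 or AD-HFD-4, 14 on leaving out AD-HFD-3 and 0 with the red blood cell covariate. Of 20 lipoprotein transport genes 4 rose and 2 fell, and the count of 4 was 8 on leaving out AD-HFD-3 and 1 with the red blood cell covariate. The shares of proteasome and lipoprotein transport genes that rose were near that of all genes. In the lists of hippocampal, cerebellar, thalamic and midbrain markers no more than 1 member passed in each direction. Of 13 mitochondrially encoded protein genes 1 fell, Mt-nd3 (-0.85 ± 0.15).

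The AD libraries share the Sham controls of this comparison, so their levels are set beside it with no test. For the risers Ccl2, Socs3, Hmox1 and Stat3, AD-3 was within or above the AD-HFD range and the other AD libraries were below it. Ccl2 was at 1.77, 0.933, 382 and 14.5 CPM in AD-1 to AD-4, Socs3 at 1.83, 3.53, 63.7 and 15.2 CPM, Hmox1 at 10.4, 14, 591 and 99.6 CPM and Stat3 at 105, 72.1, 348 and 171 CPM. Hspa1a was at 0.0346, 0.0292, 50.2 and 169 CPM, so AD-1 and AD-2 lay below every Sham library. Nr4a1 stood at 8.86, 7.70, 14.8 and 10.7 CPM in AD, below both Sham and AD-HFD. Lipm was at 0, 0, 0.154 and 0 CPM in AD, where 3 libraries had no counts. Among the genes lower in AD-HFD, Dbp was at 144, 114, 35.6 and 118 CPM in AD and P2ry12 at 11.53, 11.1, 2.95 and 5.55 CPM, both lowest in AD-3. Lamp5, the cortical marker, was at 18.2, 38.2, 175 and 13.8 CPM, highest in AD-3. Scn4b, low in AD-HFD, was at 248, 271, 166 and 72.4 CPM in AD, against 85.6 to 266 CPM in Sham. The AD libraries differ among themselves in region markers. Tcf7l2, a thalamic marker, was at 390, 99.1, 6.24 and 223 CPM in AD-1 to AD-4. None of the 8 libraries compared here exceeded 14.1 CPM, so AD-3 alone of the AD libraries lay in their range.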

How the data were processed

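The aligner, counting tool, strand setting, genome build and annotation are not given in the sources used here; FastQC and Trimmomatic are named in the submitters' processing notes. The authors deposited 1 table of raw read counts per gene for 12 libraries, with 31177 rows, of which 22050 carry Ensembl identifiers and 9127 are new loci. Genes were filtered with filterByExpr, scaled by TMM and tested with edgeR 4.0.16 (quasi-likelihood, R 4.3.3) on the 8 libraries, and p-values were Benjamini-Hochberg adjusted over 18161 genes, with a threshold of 0.05. Printed CPM use TMM over all 12 libraries. No 2 libraries of a group agreed within counting noise (chi-square per degree of freedom of 17.4 to 459.5), so each was counted as a sample.

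Genes were named by rule. The 12 largest rises and falls came from called genes of at least 1 CPM in the higher group with groups apart. The rule added the 6 smallest p in each direction and up to 4 smallest p in each of 42 lists. It also took 8 genes whatever their values, App, Mapt, Apoe, Trem2, Gfap, Insr, Nr4a1 and Lipm. Other genes were chosen after their values were seen. A few genes that the rule names are not reported here. The members and lists were chosen with earlier results of these data known. A list has 1 row per symbol, and fits without a library were filtered anew, so the members tested can differ. Near-identical copies (globin, ribosomal, RT1, Hsp70 and chemokine genes) can share reads. Promoter windows come from RefSeq (GRCr8) by symbol, 855 of 1143 list members matched, and only the first listed start site of a gene was used. Alternatives were DESeq2 1.42.0, limma voom 3.58.1, other scalings and filters, all 12 libraries, the replicate block, cell marker covariates and leaving out libraries.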

Additional observations from a re-analysis of the deposited data

Results flagged for a closer look

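Each value below stood apart from the other 3 libraries of its group, in that its gap to the nearest was above the Dixon critical value for 4 samples. Of 498 groups of 4 tested (named genes, list means and library measures), 33 held such a value, where chance gives about 1 in 20, or 25.

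AD-HFD-3 stood apart in several readouts. Its mean log2 CPM of oligodendrocyte and myelin genes was 6.54, against 8.40 to 8.57 in the other AD-HFD libraries. It was low for the microglial integrin Itgax (9.15 against 53 to 59.5 CPM), Hmox1 (155 against 296 to 317 CPM) and the sterol isomerase Idi1 (50.02 against 109.7 to 118 CPM). It was high, on the side of Sham, for Mef2c (253 against 77.2 to 101 CPM), the AMPA receptor subunit Gria3 (184 against 35.1 to 55.5 CPM), Sort1 (535 against 325 to 342 CPM) and Ackr2 (1.25 against 0 to 0.191 CPM).

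AD-HFD-4 was high for the proteases Mmp13 (26.2 against 0.953 to 4.36 CPM), Plau (27.9 against 16.7 to 18.2 CPM) and Ece1 (789 against 149.5 to 255 CPM). It was also high for Igfbp3 (168 against 33.8 to 50.9 CPM), the AP-1 subunit Fosl1 (68.3 against 36.5 to 41.2 CPM), Notch4 (155 against 25.5 to 41.9 CPM) and Cry1 (33.4 against 30.5 to 30.8 CPM). It was low for the neurofilament Nefh (25.3 against 69.9 to 78.3 CPM) and the potassium channel subunit Kcns1 (1.5 against 5.54 to 6.14 CPM). AD-HFD-2 was high for the smooth muscle gene Tagln (449 against 85.9 to 123 CPM) and for the striatal genes Penk (72.0 against 39.9 to 42.4 CPM) and Gpr6 (1.75 against 0.625 to 0.755 CPM).

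In Sham, Sham-2 had a red blood cell mean log2 CPM of 3.69 (3.01 to 3.05 in the others) and a proteasome mean of 6.74 (6.82 to 6.83). Sham-2 was also high for Omg (289.8 against 258 to 263 CPM) and Rbpj (41.4 against 34.3 to 35.5 CPM), and low for Rab3a (618 against 813 to 836 CPM), Ndufs3 (86.0 against 105 to 108 CPM) and Sdha (329.8 against 384 to 389 CPM). Sham-3 was high for Gpr6 (19.6 against 3.54 to 5.69 CPM), low for Nat8f3 (21.9 against 30.6 to 31.6 CPM), Mef2c (412 against 515 to 535 CPM) and Col12a1 (4.59 against 6.73 to 7.02 CPM), and the only Sham library with Mmp3 counts (0.136 CPM). Sham-4 was high for Hes5 (6.76 against 5.54 to 5.75 CPM).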

How the results depend on the processing

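The counts of genes called depended on the libraries and covariates more than on the count model, scaling or filter. Under DESeq2, limma voom, the legacy quasi-likelihood method, other scalings, other filters, the choroid plexus covariate and the fit of all 12 libraries the total lay between 5635 and 7823, against 6101. The split by direction moved among these fits. Higher and lower genes were 3159 and 2778 under limma voom, 4432 and 3391 under DESeq2 and 3471 and 2784 under upper-quartile scaling, against 3747 and 2354. With the red blood cell covariate 2405 genes were called, 1682 higher and 723 lower. With both covariates 3092 were called, 2064 higher and 1028 lower. Leaving out 1 library gave totals of 3230 to 9717, higher counts of 2275 to 5146 and lower counts of 955 to 4571. Without AD-HFD-3 and AD-HFD-4 together 4212 genes were lower. At an adjusted p under 0.01 a total of 2096 genes were called, 1565 higher and 531 lower, and at 0.1 there were 3583 lower genes. With a log2 change of at least 1 there were 3874 genes, 2474 higher and 1400 lower. All calls shared with the 6101 kept their direction in each of these fits, and no scaling moved the median over genes by more than 0.0540. For the 193 named genes, 4003 of the comparisons with an alternative kept direction and side of the threshold, 213 fell short of it and 25 newly passed. The causes were not tested.

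Same-numbered Sham and AD-HFD libraries did not deviate together (correlations -0.347, 0.0493, -0.196 and -0.00107). The labels state no pairing, but so few libraries of uneven content cannot exclude that the replicate numbers pair the samples. With the replicate number as a block 3293 genes were called, 2136 higher and 1157 lower.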
